A study of Mus musculus with 6 samples.

Results

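The CD300 receptors of myeloid cells are described here by 7 genes, Cd300a, Cd300c, Cd300c2, Cd300e, Cd300lb, Cd300ld and Cd300lf, of the 47069 genes counted in mouse lung. These genes were chosen by name with their difference between KO and WT lungs already known, so that this difference is given as a description, without a test for any of the 7. The count table held 6 of them under their own symbols, and Cd300c2 was found by its Ensembl identifier (ENSMUSG00000044811), which the table lists as AF251705. RNA-seq of whole lung was available for 6 mice, 1 library each, namely the WT animals WT4, WT5 and WT6 and the KO animals KO4, KO5 and KO6. The KO mice were of the B6.129S7-Zpbp2 tmZuk/Mmjax strain, in which exons 1 to 3 of Zpbp2 are deleted, on a C57BL/6J background. The WT mice were C57BL/6J from the same colony. All were adults kept in a light/dark cycle, and their lungs were taken at ZT10, 10 h after lights on. The labels give no sex for the single libraries. Xist, a transcript of the inactive X chromosome of females, was counted 15033 to 47369 times in each of the 6.

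CD300 receptors are cell surface glycoproteins with a single immunoglobulin-like domain, and most of them recognise lipids such as those exposed on dying cells. The family works as a set of paired receptors. CD300A and CD300LF carry immunoreceptor tyrosine-based inhibitory motifs (ITIMs) in a long tail and recruit phosphatases. The others have short tails and signal through adaptor proteins with activating motifs, such as DAP12 and the Fc receptor gamma chain, which then engage the kinase SYK. In the lung these receptors are found on monocytes, macrophages, neutrophils, dendritic cells and mast cells.

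The 7 genes lie in a cluster on chromosome 11 (GRCm38, GENCODE release M21), which runs for 243.95 kb from 114890041, the start of Cd300a, to 115133992, the end of Cd300lf. Cd300a is on the plus strand, and the other 6 are on the minus strand. The cluster begins 16.3 Mb beyond the end of Zpbp2, which is on the same chromosome. Zpbp2 itself was counted 1, 2 and 2 times in the WT libraries and 0 times in each KO library, so that at this depth it was barely detected in WT lung.

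Regions at the starts of some of the 7 genes are shown first, as a description of their sequence. The sequences below are 110 bases of promoter from RefSeq (GRCm38.p6), read 5′ to 3′ on the strand of each gene and ending outside the annotated transcripts of the gene itself. Capitals mark the letters GAGGAA, or TTCCTC where they lie on the other strand, a form that PU.1, a transcription factor of myeloid cells, prefers. The positions are chr11:114889931-114890040 (plus strand) for Cd300a, chr11:115133993-115134102 for Cd300lf, chr11:115001881-115001990 for Cd300c2, chr11:114989923-114990032 for Cd300ld and chr11:115062178-115062287 for Cd300e, the last 4 on the minus strand. The first 4 hold the letters, and Cd300e is shown as the gene with the largest difference between the groups.
Cd300a: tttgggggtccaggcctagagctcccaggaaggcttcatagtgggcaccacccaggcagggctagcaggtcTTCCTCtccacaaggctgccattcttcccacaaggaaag
Cd300lf: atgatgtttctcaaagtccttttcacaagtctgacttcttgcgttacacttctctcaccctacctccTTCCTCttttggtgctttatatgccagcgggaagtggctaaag
Cd300c2: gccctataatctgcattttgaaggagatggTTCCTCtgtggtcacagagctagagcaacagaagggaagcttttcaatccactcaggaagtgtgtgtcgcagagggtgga
Cd300ld: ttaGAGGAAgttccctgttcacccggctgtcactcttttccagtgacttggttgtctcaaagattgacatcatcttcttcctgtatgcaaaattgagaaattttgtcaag
Cd300e: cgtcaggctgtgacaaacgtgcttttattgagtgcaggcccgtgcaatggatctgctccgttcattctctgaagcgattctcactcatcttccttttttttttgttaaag

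In the 300 bases around each RefSeq start (250 before and 50 after it), 4 of the 7 genes held GAGGAA on either strand, against 28.3% of 32851 promoters of the same length. The match began at -39 in Cd300a, -43 in Cd300lf, -80 in Cd300c2 and -143 in Cd300ld, counted with the start base as 0, and Cd300lf had a further match at 0. Shorter forms such as GGAA were not counted. No match to GAGGAA was found in the windows of Cd300lb, Cd300c and Cd300e. These 3 differed between KO and WT lung by 1.24, 0.68 and 2.02 on the log2 scale. Cd300a, Cd300lf, Cd300c2 and Cd300ld, which held a match, differed by 1.58, 0.88, 0.87 and 1.10. Spi1, which encodes PU.1 and was looked up after the other values were seen, had 27.4, 24.2 and 24.6 CPM in WT4, WT5 and WT6 and 40.8, 44.3 and 52.1 CPM in KO4, KO5 and KO6 (log2 fold change 0.85, SE 0.10, adjusted p = 0.0121, quasi-likelihood test of edgeR with the Benjamini-Hochberg method over all genes tested). A letter match is not a binding site, and binding was not measured here. A part of PU.1 in the difference between the groups was not tested.

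The coding sequences of the cluster are alike to different degrees, which bears on how reads were assigned. Over the longest annotated coding sequences, 84.6% of the aligned bases were identical between Cd300c and Cd300c2, 83.9% between Cd300ld and Cd300lf and 81.3% between Cd300a and Cd300c2, while Cd300lb was closest to Cd300lf, at 67.7%. Of the 50-base stretches in the transcripts, 7.16% of those of Cd300c2, 3.89% of those of Cd300ld, 1.91% of those of Cd300lf and 1.90% of those of Cd300a also occurred in another family gene. None of those of Cd300lb, Cd300c and Cd300e did, so a read on such a stretch could be placed in these 3 genes without a rival in the family. No exon of the 7 genes overlapped an exon of another annotated gene.

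The libraries held 19981428 to 46796908 counted reads, at which 3 counts, taken here as the limit of detection, equal 0.0629 to 0.148 CPM (counts per 1000000 reads, on library sizes scaled by the TMM method). All 7 genes passed the filter on low counts, and 17037 genes were tested in all. The filter asks for at least 3 libraries at its cut, which Cd300c reached in 1 WT and 3 KO mice, so it was kept through the KO mice. In whole lung, more cells of a type and more RNA per cell cannot be told apart.

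Taken as a group, CD300 transcripts were more abundant in the KO lungs. The summed level of the 7 genes was 54.3, 47.5 and 45.1 CPM in WT4, WT5 and WT6 and 110.28, 95.9 and 138 CPM in KO4, KO5 and KO6. All 7 had a positive log2 fold change, between 0.68 and 2.02 with a median of 1.10, where the median over all genes tested was 0.003. In 6 of the 7 every KO mouse was above every WT mouse, as for 17.0% of all genes tested. An adjusted p of at most 0.05 with a higher level in KO was reached by 5 genes (3.72% of all genes tested), and a log2 fold change of at least 1.5 in addition by 2 genes, Cd300a and Cd300e (0.575% of all genes tested). Because the genes were selected on this contrast, nothing is read from these counts. They also changed with 1 mouse left out, as 3 genes passed without WT4, 0 without WT5 or WT6 and 6 without KO5. In the same fits, which have fewer mice, the calls over all genes went from 1089 to 254, 1, 63 and 933. The median log2 fold change of the 7 genes was 0.96 to 1.33 with any 1 mouse left out.

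**Figure D1:**
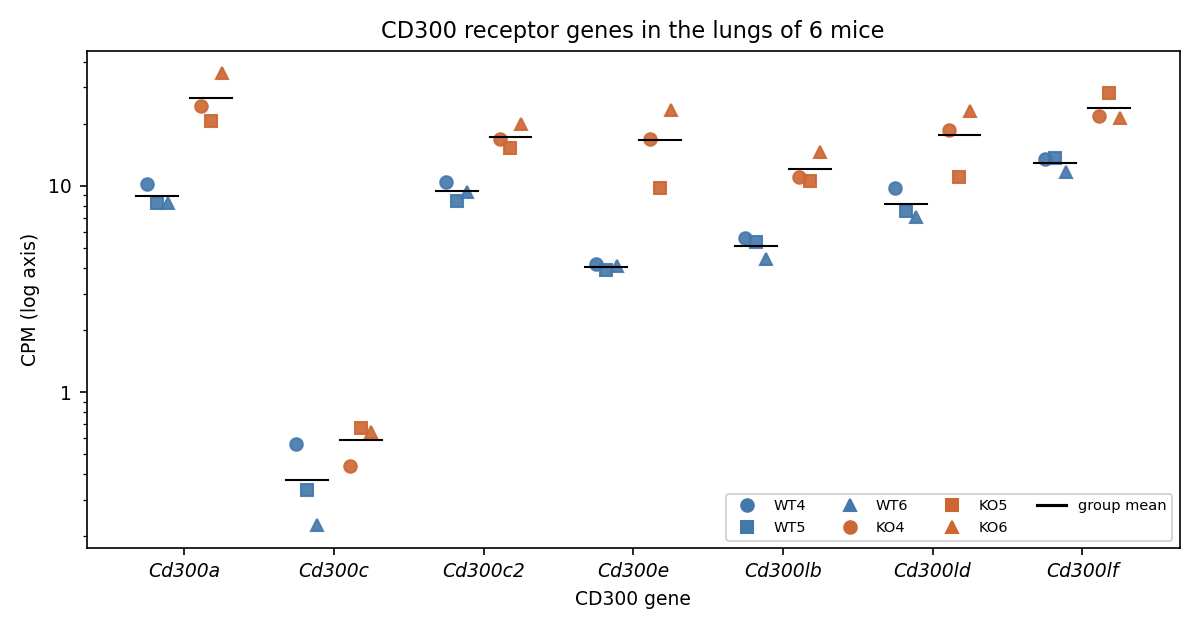
CPM on a log axis (y) for each of the 7 CD300 genes (x), with 1 point per mouse, blue for WT, orange for KO, and a black line at the group mean. The orange points lie above the blue ones for every gene but Cd300c, and Cd300e has the widest gap, from 4.06 CPM on average in WT to 16.6 CPM in KO mice.

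The inhibitory receptors came from the ends of the cluster. Cd300a (ENSMUSG00000034652) had 10.2, 8.24 and 8.28 CPM in WT4, WT5 and WT6 and 24.4, 20.6 and 35.1 CPM in KO4, KO5 and KO6. Its lowest KO mouse, KO5, was well above the highest WT mouse, WT4. The log2 fold change was 1.58 (SE 0.21), from a mean of 8.92 ± 1.13 CPM (SD, n = 3) in WT to 26.7 ± 7.53 CPM (SD, n = 3) in KO mice, a 2.99-fold difference. Cd300lf (ENSMUSG00000047798), which binds ceramide and other lipids and dampens activation of myeloid cells, had the highest CPM of the 7 in WT lung. It was at 13.5, 13.6 and 11.6 CPM in the WT mice and at 21.9, 28.1 and 21.3 CPM in KO4, KO5 and KO6. The groups were apart, and the order of the KO mice was the opposite of that for Cd300a, with KO5 highest. The difference was 1.84-fold, or 0.88 on the log2 scale (SE 0.13).

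Of the activating receptors, Cd300e (ENSMUSG00000048498), a DAP12-coupled receptor known from monocytes, differed most. Its level was 4.19, 3.93 and 4.08 CPM in WT4, WT5 and WT6 and 16.8, 9.71 and 23.4 CPM in KO4, KO5 and KO6. The WT mice were close together, with an SD of 0.129 CPM, and the KO mice were spread, at 4.14, 2.39 and 5.75 times the WT mean. The log2 fold change was 2.02 (SE 0.30), and it lay between 1.69 and 2.30 with any 1 mouse left out, the lowest without KO6 and the highest without KO5.

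Cd300lb (ENSMUSG00000063193), which signals through DAP12, had 5.60, 5.37 and 4.40 CPM in the WT mice and 11.1, 10.6 and 14.6 CPM in KO4, KO5 and KO6. KO6 was again the highest, and the difference was 2.36-fold (log2 fold change 1.24, SE 0.17). Cd300ld (ENSMUSG00000034641), which uses the Fc receptor gamma chain, had 9.78, 7.57 and 7.08 CPM in WT4, WT5 and WT6 and 18.7, 11.1 and 23.0 CPM in KO4, KO5 and KO6. Here KO5 lay only 1.36 times above the WT mean and close to WT4, so that the groups were apart by a small margin. The log2 fold change was 1.10 (SE 0.27).

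Cd300c2, an activating receptor closely related in sequence to Cd300c, was at 10.5, 8.48 and 9.38 CPM in the WT mice and 17.0, 15.2 and 19.8 CPM in the KO mice. It was among the least variable of the 7 within the groups, and the difference was 1.84-fold (log2 fold change 0.87, SE 0.13). Cd300c (ENSMUSG00000058728) was by far the scarcest, with 14, 7 and 7 reads in WT4, WT5 and WT6 and 9, 32 and 13 reads in the KO libraries. These correspond to 0.564, 0.335 and 0.226 CPM against 0.440, 0.671 and 0.642 CPM. KO4 was below WT4, so the groups overlapped. The log2 fold change of 0.68 (SE 0.39) moved between 0.38 without WT6 and 1.10 without WT4.

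Among the KO mice, KO6 was the highest for Cd300a, Cd300c2, Cd300e, Cd300lb and Cd300ld, and KO5 was the lowest for the same 5 genes. Cd300lf and Cd300c were highest in KO5. KO5 was also the most deeply sequenced library (46796908 counts) and had the highest summed level of B cell markers (1096 CPM, against 259 in KO4, 312 in KO6 and 139 to 154 in the WT mice), whose part in the CD300 values was not tested.

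**Figure D2:**
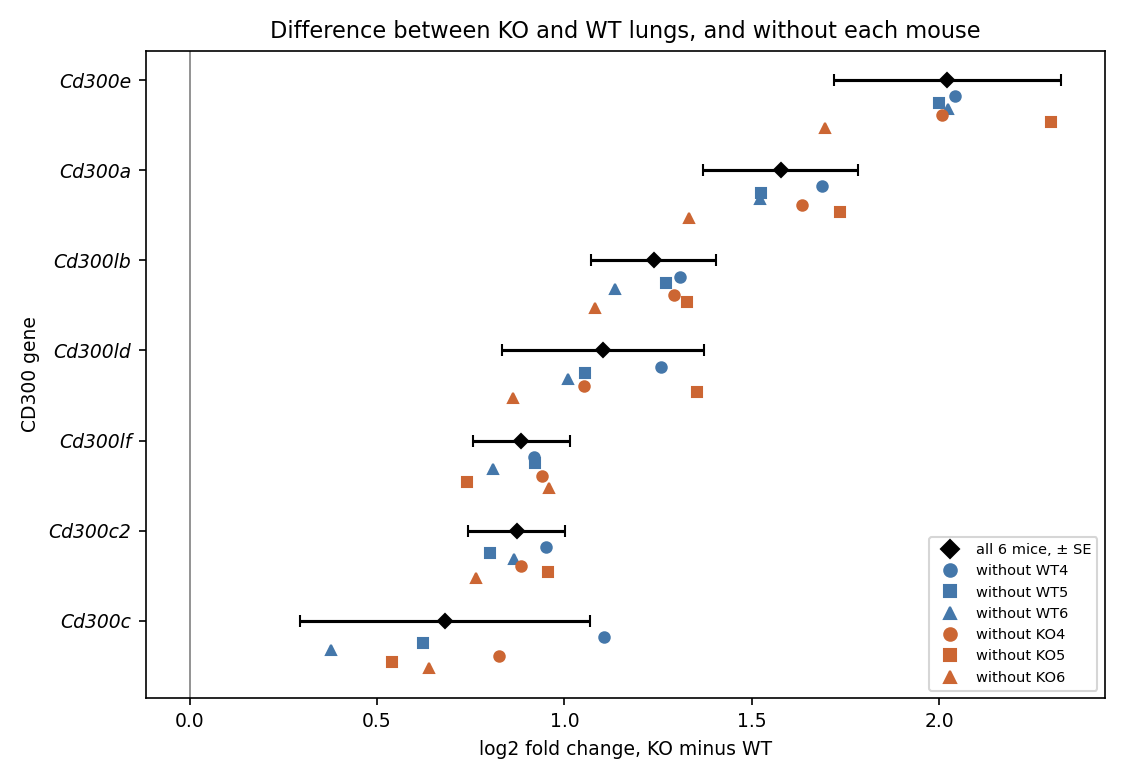
log2 fold change, KO minus WT (x), for each CD300 gene (y), with all 6 mice as a black diamond with its SE, and with 1 mouse left out as coloured points below it. All points are above 0, those without KO6 are the lowest for 5 of the genes, and Cd300c moves most, from 0.38 to 1.10.

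The proportions among the 7 genes are given as a description. Cd300e made up 8.34% of the summed CD300 level in WT mice (7.70% to 9.04%) and 14.1% in KO mice (10.1% to 16.9%). The share of Cd300a was 18.2% in WT (17.3% to 18.8%) and 23.0% in KO mice (21.5% to 25.5%), and that of Cd300c2 was 19.3% (17.8% to 20.8%) and 15.2% (14.4% to 15.9%). For these 3 genes the ranges of the groups did not overlap, but no background over other genes was taken for such shares. They follow from the differences of the single genes, on which the 7 were chosen, and nothing further is read from them. The shares of Cd300lf (24.9% to 28.6% in WT, 15.5% to 29.3% in KO), Cd300ld, Cd300lb and Cd300c overlapped.

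**Figure D3:**
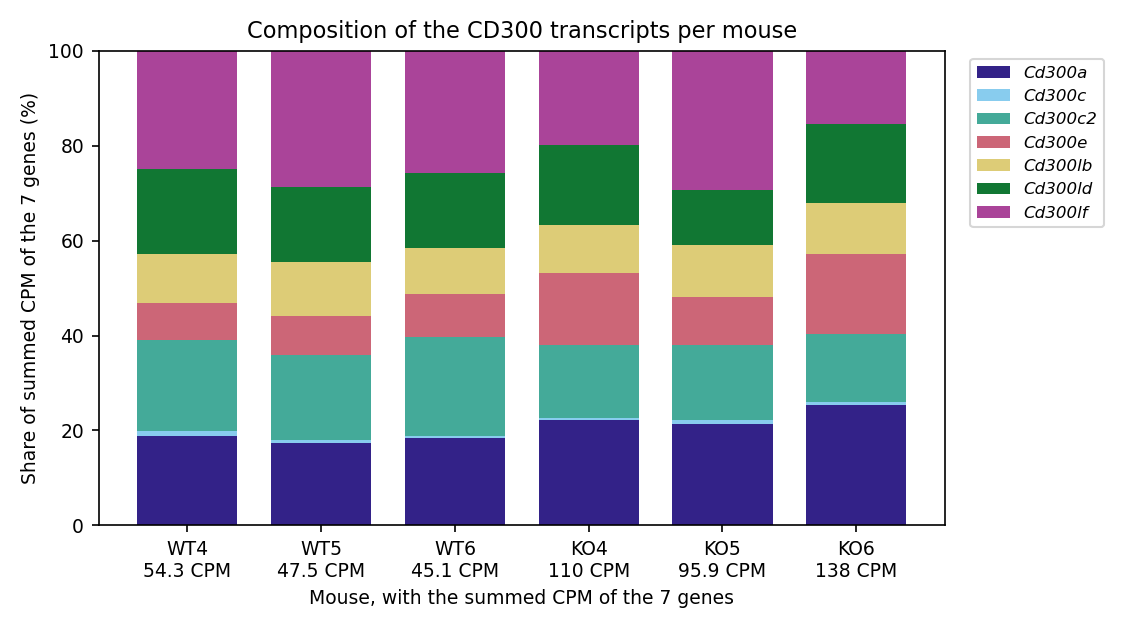
Share of each gene in the summed CPM of the 7 CD300 genes, in percent (y), as 1 stacked bar per mouse (x), with the summed CPM under each bar. The segment of Cd300e is 7.70% to 9.04% high in the WT mice and 10.1% to 16.9% in the KO mice, and that of Cd300lf is smallest in KO6.

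Levels can be compared between genes only per length, for which CPM were divided by the kb of exon of each gene. In WT lung, Cd300c2 was highest with 7.41 ± 0.780 CPM per kb (SD, n = 3), followed by Cd300ld with 3.08 ± 0.544, Cd300lf with 2.51 ± 0.216, Cd300e with 1.95 ± 0.0618, Cd300a with 1.88 ± 0.239, Cd300lb with 1.76 ± 0.218 and Cd300c with 0.352 ± 0.162. The ranges of Cd300e and Cd300a overlapped, as did those of Cd300a and Cd300lb, and at the other steps of this order the ranges over the 3 mice were apart. In KO lung the order was Cd300c2 with 13.6 ± 1.84 CPM per kb (SD, n = 3), Cd300e with 7.96 ± 3.27, Cd300ld with 6.66 ± 2.28, Cd300a with 5.63 ± 1.59, Cd300lf with 4.62 ± 0.733, Cd300lb with 4.14 ± 0.756 and Cd300c with 0.549 ± 0.118. In this order only the step below Cd300c2 and the step above Cd300c had ranges that were apart. Cd300e, the fourth in WT lung, came next after Cd300c2 in KO lung and was above Cd300ld in each of the 3 KO mice.

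The rest of the family had few counted reads or went the other way. Cd300ld2, Cd300ld3, Cd300ld4 and Cd300ld5, which lie between Cd300c2 and Cd300e, had at most 13 counts in any mouse and were not tested. Their coding sequences are 96.7% to 99.9% identical to each other and 84.3% to 86.0% identical to Cd300ld, so that reads could not be divided among them with certainty. Of their 50-base stretches, 31.0% (Cd300ld2), 82.1% (Cd300ld3), 93.8% (Cd300ld4) and 100% (Cd300ld5) also occurred in another family gene. The low counts of Cd300ld3, Cd300ld4 and Cd300ld5 therefore do not show how strongly these genes were transcribed. Most stretches of Cd300ld2 occurred in no other family gene, and it had 0 to 4 counts per mouse. Cd300lg, whose mucin-like product is known from endothelium, lies apart from the cluster on chromosome 11 from 102041509 to 102055620. This is nearer to Zpbp2, which ends at 98558665, than the cluster is, and a part of position in the difference was not tested. Cd300lg had 20.97, 19.6 and 14.3 CPM in WT4, WT5 and WT6 and 3.08, 8.08 and 5.63 CPM in KO4, KO5 and KO6. Every KO mouse was below every WT mouse, with a log2 fold change of -1.68 (SE 0.32, adjusted p = 0.0334 by the same test), where 2.67% of all genes tested passed with a lower level in KO. It passed without KO4 or KO5 and did not pass without WT4, WT5, WT6 or KO6.

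The difference of the 7 genes was set beside that of other genes at the same place on the chromosome. Of 44 annotated genes within 0.5 Mb of the ends of the cluster, 26 were tested, and their median log2 fold change was 0.03. At an adjusted p of at most 0.05, 2 were higher in KO (Rab37 and Nat9) and 0 were lower, against 3.72% and 2.67% of all genes tested. At an unadjusted p under 0.05, 5 were higher and 2 lower, and DESeq2 called 3 higher and 1 lower. Rab37, a small GTPase of secretory granules, spans Cd300lf on the opposite strand with no shared exon, and it had 1.81, 1.82 and 1.94 CPM in the WT mice and 3.28, 4.91 and 3.80 CPM in the KO mice (log2 fold change 1.11, SE 0.19, adjusted p = 0.0256). Like Cd300lf it was highest in KO5. Reads of Cd300lf and Rab37 from introns or unspliced RNA would be separable only by strand, and the strand setting of the counting is not given in the sources used here.

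Nat9, an acetyltransferase 48.8 kb beyond the cluster, differed by 0.30 on the log2 scale (SE 0.07, adjusted p = 0.0452). On the side of Cd300a, the tested genes nearest to the cluster were Gprc5c and Kif19a, with log2 fold changes of -0.15 (SE 0.15) and 0.01 (SE 0.19). On the side of Cd300lf, Slc9a3r1 had -0.14 (SE 0.07), and Tmem104, 53.5 kb from the cluster, had -0.24 (SE 0.07, adjusted p = 0.0886), with every KO mouse (19.7 to 21.7 CPM) below every WT mouse (23.3 to 25.5 CPM). None of these 4 passed. The calls on Rab37 and Nat9 changed with 1 mouse left out, as 0 of the 26 passed without WT4, WT5, WT6 or KO6 and 1 without KO4 or KO5.

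**Figure D4:**
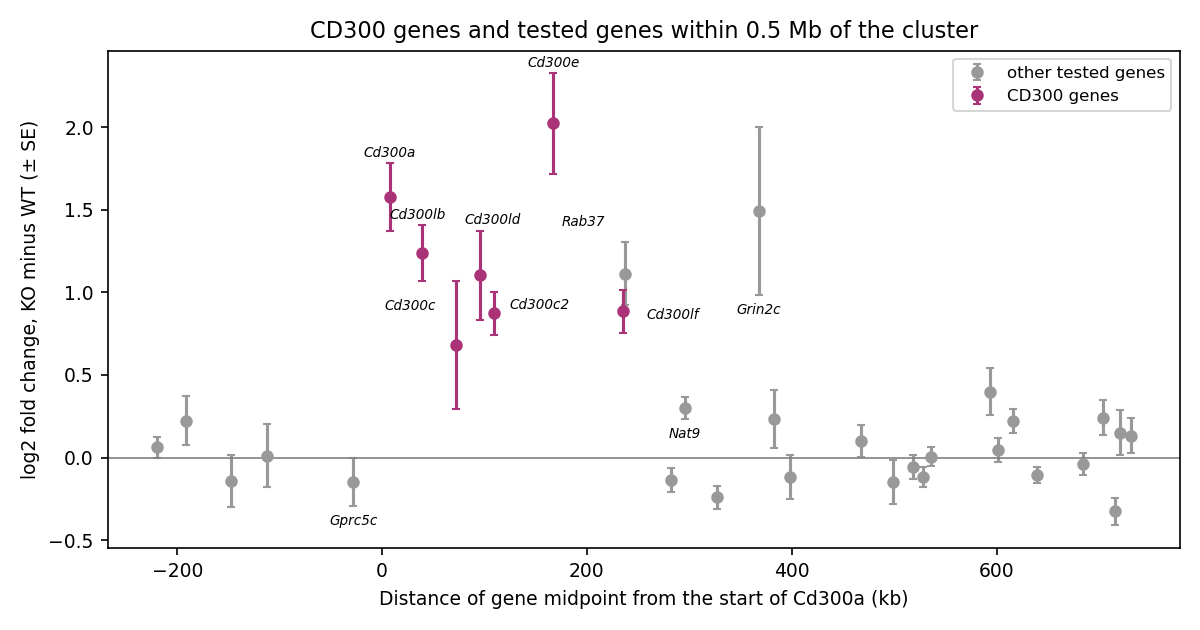
log2 fold change, KO minus WT, with its SE (y) against the distance of each gene's midpoint from the start of Cd300a in kb (x), for the 7 CD300 genes in purple and the 26 tested genes within 0.5 Mb in grey. The grey points lie near 0 on both sides of the cluster apart from Rab37 and Grin2c, the latter with an SE of 0.51.

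Transcripts of most proteins that CD300 receptors signal through were higher in KO lung, though the highest KO mouse differed between genes. Of 13 adaptors and kinases, 9 rose at an adjusted p of at most 0.05 and 0 fell, with a median log2 fold change of 0.93. Of all genes tested, 3.72% passed with a higher level in KO, and the lists were chosen with earlier results known. DESeq2 called 10 higher and 0 lower, and at an unadjusted p under 0.05 the counts were 12 and 0. Fgr, a Src family kinase, rose from a mean of 17.9 CPM in WT to 48.5 CPM in KO mice (log2 fold change 1.43, SE 0.18, adjusted p = 0.0142), and Lcp2, the adaptor SLP-76, rose from 17.9 to 35.8 CPM (adjusted p = 0.0162). Lyn, which phosphorylates ITIMs, rose from 96.1 to 130.45 CPM (0.44, SE 0.07, adjusted p = 0.0199).

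Tyrobp, which encodes DAP12, was at 29.4 to 38.3 CPM in WT and 56.7 to 73.8 CPM in KO mice (log2 fold change 0.87, SE 0.13, adjusted p = 0.0208), and Fcer1g, the Fc receptor gamma chain, differed by 0.85 (adjusted p = 0.0440). Syk had a log2 fold change of 1.19 and did not pass (adjusted p = 0.0718). It was at 84.6, 210 and 103 CPM in KO4, KO5 and KO6. Of 4 phosphatases and regulators that act at ITIMs, 1 passed, Ptpn6 (SHP-1), with 42.3 to 48.5 CPM in WT and 73.5 to 133 CPM in KO mice (1.09, SE 0.21, adjusted p = 0.0322). At an unadjusted p under 0.05 these 4 gave 3 higher and 1 lower, and DESeq2 called 2 higher and 1 lower. The lower one was Ptpn11 (SHP-2), with 192 to 206 CPM in WT and 175 to 182 CPM in KO mice (-0.16, SE 0.05, adjusted p = 0.0988 by edgeR). Among the KO mice, Lyn, Syk, Ptpn6 and Ptpn11 were highest in KO5, and Fgr, Lcp2, Tyrobp and Fcer1g were highest in KO6. Without WT4, WT5, WT6 or KO6 the count of adaptors and kinases that passed was 4, 0, 1 and 3, and Ptpn6 did not pass in any of these 4 fits.

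Other paired receptors of myeloid cells were a further list. Of 25 tested, 12 rose and 0 fell at an adjusted p of at most 0.05, where 3.72% of all genes tested rose. The median log2 fold change was 0.87, and DESeq2 called 15 higher and 0 lower. At an unadjusted p under 0.05, 21 were higher and 0 lower. Clec12a, an inhibitory lectin receptor, rose from 7.40 to 19.6 CPM on average (log2 fold change 1.40, SE 0.14, adjusted p = 0.0090), and Lair1, an inhibitory receptor for collagen, rose from 7.54 to 18.8 CPM (1.31, SE 0.16, adjusted p = 0.0120). Pilrb1, an activating receptor coupled to DAP12, rose from 2.03 to 5.62 CPM (1.46, SE 0.22, adjusted p = 0.0207). Pirb, an inhibitory receptor for MHC class I, rose from 20.6 to 39.9 CPM (0.96, SE 0.15, adjusted p = 0.0227). The count that passed was 6 without WT4, 0 without WT5, 1 without WT6 and 2 without KO6.

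Receptors and bridging proteins outside the CD300 family that bind phosphatidylserine were a separate list. Of 12 tested, 0 were called in either direction by edgeR's quasi-likelihood test, and the median log2 fold change was 0.11. The counts were 5 higher and 0 lower at an unadjusted p under 0.05 and 3 higher and 0 lower by DESeq2. The quasi-likelihood test called 2 when 10 counts were asked of each library, 1 without a filter and 1 without KO4. Every KO mouse was above every WT mouse for Trem2, a DAP12-coupled lipid receptor, with 2.68 to 3.16 CPM in WT and 4.15 to 5.04 CPM in KO mice (log2 fold change 0.64, SE 0.15, adjusted p = 0.0514). The same held for Havcr1 (TIM-1), with 0.483 to 1.04 and 1.42 to 2.92 CPM (1.59, SE 0.38, adjusted p = 0.0536). The most abundant of them were Gas6, a bridging ligand of TAM receptors, with 313 ± 14.1 CPM (SD, n = 3) in WT and 301 ± 13.1 CPM in KO mice, and Mfge8, a bridging protein for integrins, with 246 ± 12.8 and 251 ± 6.64 CPM. For both, the means differed by less than the SD between mice.

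**Figure D5:**
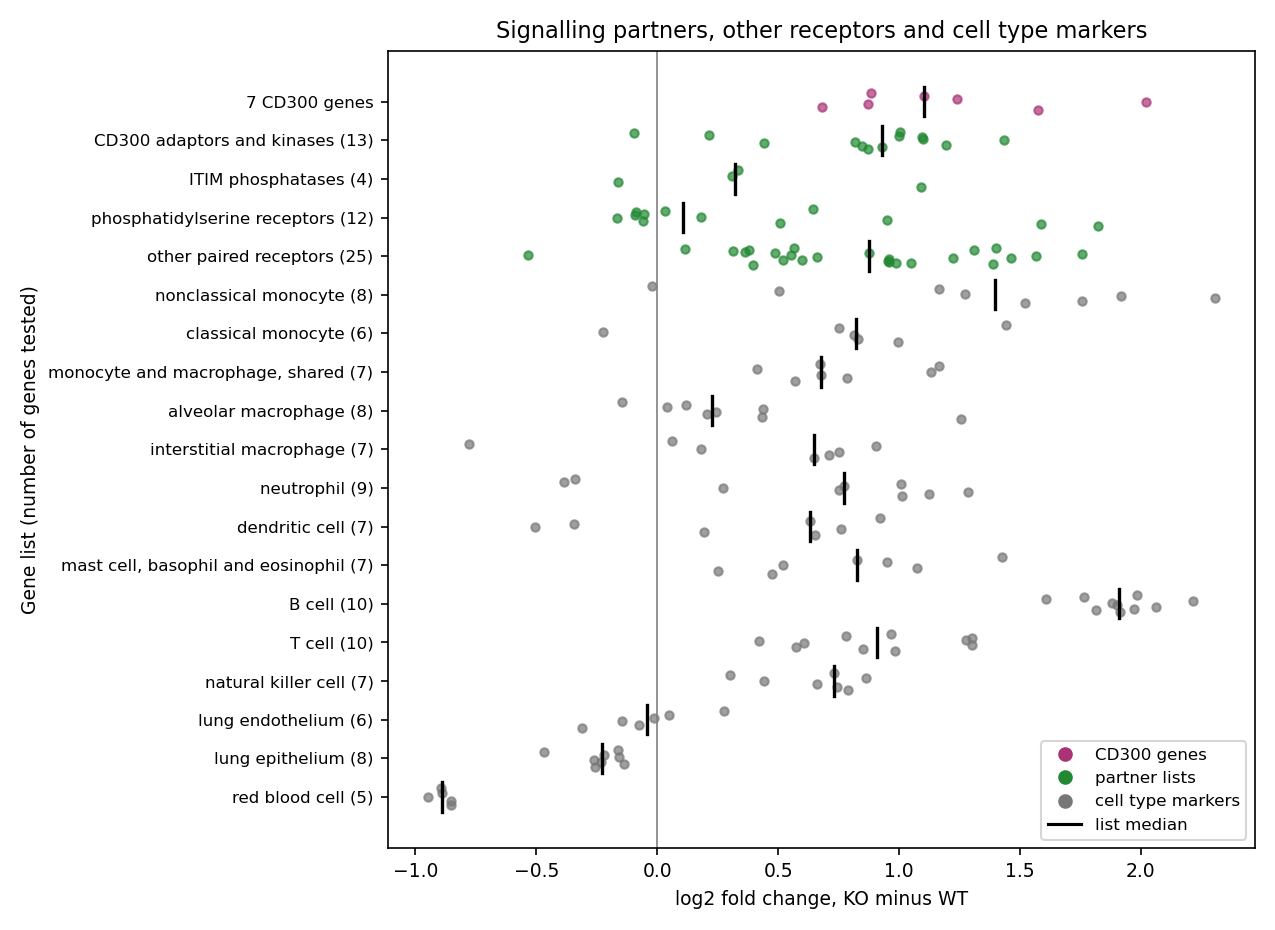
log2 fold change, KO minus WT (x), of each tested gene in the lists named on the y axis, with a black line at the list median, purple for the CD300 genes, green for signalling partners and other receptors and grey for cell type markers. The medians are highest for B cell (1.91) and nonclassical monocyte markers (1.40) and lowest for red blood cell markers (-0.89).

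Most monocyte markers were higher in KO lung along with the 7 genes, and their part in the result was not tested. Of all genes tested, 3.72% passed with a higher and 2.67% with a lower level in KO, the share to set beside each marker list. Of 8 tested markers of nonclassical monocytes, 6 rose and 0 fell at an adjusted p of at most 0.05, with a median log2 fold change of 1.40. By sign alone 7 were higher and 1 was lower, Nr4a1 (-0.02, SE 0.60). Their summed level was 177 to 255 CPM in WT and 412 to 549 CPM in KO mice. The 4 with the smallest p were Spn, a sialomucin (log2 fold change 1.27, adjusted p = 0.0118), Cx3cr1, the fractalkine receptor (1.52, adjusted p = 0.0118), Itgal, an integrin chain (1.17, adjusted p = 0.0137), and Pou2f2, a transcription factor (1.92, adjusted p = 0.0148). Of 6 markers of classical monocytes 3 rose (Ccr2 by 0.83, F13a1 by 0.82 and Ly6c2 by 0.99, adjusted p = 0.0176, 0.0331 and 0.0354), and the summed level was 97.9 to 115 CPM in WT and 149 to 253 CPM in KO mice. Here 5 were higher by sign and 1 was lower, Vcan (-0.23, SE 0.23). Of 7 markers shared by monocytes and macrophages 5 rose, at 391 to 529 CPM in WT and 726 to 839 CPM in KO mice in sum, among them Cd68 (0.79), Itgam (1.13) and Cybb (1.17), each at an adjusted p of 0.0211, and Ctss (0.67, adjusted p = 0.0216). Without WT5 or WT6 none of the markers in these 3 lists passed, and without KO6 the counts were 5, 1 and 0.

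Macrophage and granulocyte markers moved less uniformly. Marco was the 1 of 8 alveolar macrophage markers that rose (1.26, SE 0.11, adjusted p = 0.0067), and the list's median log2 fold change was 0.23. For interstitial macrophages the complement genes C1qb (0.71), C1qa (0.65) and C1qc (0.75) rose among 7 tested (adjusted p = 0.0321, 0.0361 and 0.0373), while the summed level of the list was 485 to 564 CPM in WT and 407 to 470 CPM in KO mice. Lyve1, a hyaluronan receptor and the most abundant of this list, had 275 to 387 CPM in WT and 162 to 265 CPM in KO mice and did not pass (-0.78, SE 0.21, adjusted p = 0.0698), and DESeq2 called 3 genes of the list higher and 1 lower. Of 9 neutrophil markers 3 rose, S100a9 (1.12), S100a8 (1.01) and Retnlg (1.29), with adjusted p of 0.0186, 0.0241 and 0.0246, and the sums of the list overlapped (84.3 to 198 CPM and 167 to 236 CPM). For this list DESeq2 called 6 higher and 0 lower, the same counts as at an unadjusted p under 0.05. Of 7 tested dendritic cell markers Xcr1 (0.65, adjusted p = 0.0426) and Flt3 (0.76, adjusted p = 0.0461) rose and Zbtb46 fell by 0.35 on the log2 scale (adjusted p = 0.0174). In these 4 lists 0 genes passed without WT5. Without WT4, WT6 or KO6 the calls were 2, 1 and 1 for alveolar macrophages, 0, 0 and 0 for interstitial macrophages, 0, 2 and 0 for neutrophils and 0, 0 and 0 for dendritic cells, of which without KO5 Zbtb46 alone passed.

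Of 7 tested markers of mast cells, basophils and eosinophils 0 passed by edgeR's quasi-likelihood test, with 3 higher and 0 lower at an unadjusted p under 0.05 and 0 higher and 0 lower by DESeq2, at sums of 4.23 to 8.82 CPM in WT and 7.87 to 14.4 CPM in KO mice. The highest of them were Prg2 (1.54 and 2.82 CPM on average) and Ccr3 (1.02 and 2.67 CPM), and Epx, the eosinophil peroxidase, did not exceed 3 counts in any mouse. B cell markers had the largest median of all lists, 1.91 over 10 tested, with 0 called by edgeR's quasi-likelihood test, 10 higher at an unadjusted p under 0.05, 8 called higher by DESeq2, and 8 called higher without KO4 or without KO5. Cd22 was at 26.3 ± 2.42 CPM (SD, n = 3) in WT and 97.3 ± 84.3 CPM in KO mice, and Ms4a1 at 20.5 ± 3.30 and 85.1 ± 75.9 CPM, both with KO5 highest. Of 10 tested T cell markers 0 passed by the same test, with 8 higher and 0 lower at an unadjusted p under 0.05 and 6 higher and 0 lower by DESeq2 and a median of 0.91, and the most abundant were Lck (12.2 ± 1.14 and 20.8 ± 10.4 CPM, SD, n = 3) and Cd4 (6.71 ± 1.01 and 16.4 ± 9.73 CPM). Of 7 natural killer cell markers Ncr1 rose (0.79, adjusted p = 0.0450), with 6 higher and 0 lower at an unadjusted p under 0.05 and 4 higher and 0 lower by DESeq2, and the summed level was 30.2 to 43.2 CPM in WT and 47.5 to 64.0 CPM in KO mice. Of 6 endothelial markers Cldn5 fell by 0.31 on the log2 scale (adjusted p = 0.0362). Of 8 epithelial markers 0 passed by the same test, with 0 higher and 3 lower at an unadjusted p under 0.05 and 0 higher and 3 lower by DESeq2 and a median of -0.23, and the most abundant were Scgb1a1 (log2 fold change -0.26, SE 0.16) and Sftpc (-0.23, SE 0.12). All 5 red blood cell markers fell, with a median of -0.89, for instance Hba-a2, Hbb-bs, Hbb-bt and Hba-a1 by 0.85, 0.95, 0.89 and 0.85 on the log2 scale (adjusted p = 0.0137, 0.0142, 0.0175 and 0.0211), and their summed level was 2126 to 2277 CPM in WT and 1035 to 1411 CPM in KO mice. The part of the red cell and lymphocyte markers in the CD300 values was not tested. The red cell calls numbered 3 without WT4 and 0 without WT5, WT6 or KO6, and the calls on Ncr1 and Cldn5 were lost without WT4, WT5, WT6 or KO6, that on Cldn5 also without KO4 or KO5. Without KO4, 6 T cell markers and 1 marker of the mast cell list rose and 1 epithelial marker fell.

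The genes with the pattern over the 6 mice most like each member were found among 15378 genes with a mean of at least 1 CPM, as the smallest root mean square difference between centred log2(CPM + 0.5) values. This is a description of 6 libraries. For Cd300a they included Cx3cr1 (0.0937), the nearest, and Fgr (0.104). For Cd300e they were Treml4 (0.134), Apoc2 (0.209) and Clec4a1 (0.231), and for Cd300c2 they were Ccr2 (0.0371), Tyrobp (0.0552) and Gpr35 (0.0709). Of the nearest genes, Cx3cr1 and Treml4 are on the list of nonclassical monocyte markers and Ccr2 is on that of classical monocytes. The pattern over the 6 mice includes the difference between the groups on which the members were chosen, so genes with a difference of similar size come out near. The lists were also chosen with earlier results known, and no cell type is read from these matches.

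For Cd300lb the nearest were Sirpb1a (0.0843), Itgal (0.0944) and Igsf6 (0.0962), for Cd300ld they were Smpdl3b (0.103), Fcgr4 (0.113) and Cyp2ab1 (0.134), and for Cd300lf D930015E06Rik (0.0647), Cacna1b (0.0759) and 2310015A10Rik (0.0820). Those of Cd300c, Bex2 (0.0474), Spred3 (0.0679) and Hlcs (0.0805), rest on few counts of Cd300c. Between the members themselves the distance was smallest for Cd300c2 and Cd300lb (0.201) and largest for Cd300c and Cd300e (0.862).

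Ratios within each mouse were taken for 3 members and the nearest gene of each. Because these genes were picked for having the most similar pattern in the same 6 mice, ratios that change little follow from that choice, and they are given as values alone. The ratio of Cd300a to Cx3cr1 was 0.771 to 0.818 in WT and 0.731 to 0.909 in KO mice, and that of Cd300c2 to Ccr2 was 0.261 to 0.269 and 0.263 to 0.286. In both cases the groups overlapped. The ratio of Cd300e to Treml4 was 0.738 to 0.846 in WT and 0.915 to 1.01 in KO mice, so that every KO mouse was higher. Against Csf1r, a receptor made by monocytes and macrophages in general, Cd300a was at 0.0640 to 0.0671 in WT and 0.111 to 0.160 in KO mice, and Cd300e at 0.0274 to 0.0330 and 0.0521 to 0.106. Cd300c2 and Cd300lb were also apart on this ratio, whereas Cd300lf (0.0886 to 0.106 and 0.0970 to 0.151) and Cd300ld (0.0574 to 0.0641 and 0.0596 to 0.105) overlapped. Csf1r was added after its values were seen. Its log2 fold change was 0.57 (SE 0.10), below the median of 0.68 of the markers shared by monocytes and macrophages. The ratios depend on the gene they are taken over, and nothing is read from them.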

How the data were processed

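Lung mRNA was sequenced with a stranded kit per the labels. The submitters' processing notes name Trimmomatic 0.36, STAR 2.5.3a, Picard 2.9.0 and HTSeq 0.6.0 with GRCm38. The authors deposited whole-number counts per Ensembl gene without normalization, and the annotation release and the strand setting are not given in the sources used here. Genes on opposite strands may therefore share reads.

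The 7 genes and all gene lists were chosen with earlier results of these data known. KO and WT mice were compared with edgeR 4.0.16 (R 4.3.3) by the quasi-likelihood test, with TMM scaling, filterByExpr (minimum count 10, minimum total count 15), no covariates and Benjamini-Hochberg adjustment over 17037 genes. Tables were joined in Python 3.11.15. Genes are named by a rule: the CD300 family, Zpbp2, up to 4 passing genes per list by p (otherwise the 2 most abundant), the nearest and the passing neighbours, and the 3 nearest patterns per member. Some genes under this rule are not reported here by name but stay in the counts. Fcer1g, Syk, Csf1r, Grin2c, Spi1, Tmem104, Ptpn11, Trem2, Havcr1, Lyve1, Nr4a1, Vcan and Xist were added after their values were seen. Positions come from GENCODE M21 and promoters from RefSeq. Alternatives were DESeq2 1.42.0, its size factors in edgeR, all genes with a count, only genes with 10 counts in each mouse, the replicate block, each mouse left out, a 1 Mb window and the longest transcript. On simulated data, in 5 sets of KO against WT counts for 16865 genes, 94.0% of 200 genes given a simulated log2 difference of 2 were recovered. Of the calls, 7.92% were false, above the 0.05 asked for by the adjusted p. Smaller differences, as in most of the 7 genes, were not simulated, so their recovery is not known. Each SD rests on 3 separate mice, which limits its precision.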

Additional observations from a re-analysis of the deposited data

How the results depend on the processing

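The direction of all 7 CD300 genes held under every alternative in which they were tested (Cd300c was not tested where 10 counts were asked of each library), and their median log2 fold change (1.10) was 0.96 to 1.33 with 1 mouse left out. Calls depended far more on the processing. With all mice, 1089 genes passed the adjusted p and 109 both thresholds, and of these 5 and 2 were CD300 genes, with 2 neighbours, 23 partner genes and 31 cell type markers at the adjusted p. DESeq2 gave 1913 and 169 genes, 4 neighbours and 56 markers. Without the filter 211 genes passed both thresholds and 1 neighbour passed, and in the 1 Mb window 6 neighbours passed. With 1 mouse left out the ranges were 1 to 1278 and 1 to 214 genes, 0 to 6 and 0 to 2 CD300 genes, 0 to 1 neighbours, 0 to 26 partner genes and 0 to 49 markers, the lowest of each without WT5. The replicate numbers 4 to 6 were taken to name mice only. The deviations of same-numbered WT and KO mice had correlations of -0.03, -0.15 and -0.02, and those of differently numbered mice of -0.23 to 0.26. With 3 mice per group these values cannot decide whether same-numbered mice were paired. The fit with the replicate block gave 66 and 14 genes, 0 and 0 CD300 genes, 0 neighbours, 3 partner genes and 5 markers. With the longest transcript as length, 5 of 7 genes kept their rank in each group. Apart from the fewer mice or degrees of freedom in these fits, the cause was not tested. Cd300c, at 7 to 32 counts per mouse, was limited most by depth.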
